A study of Homo sapiens with 3 samples.

Results

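The genes described here were 10 that encode enzymes of branched-chain amino acid breakdown: BCAT1, BCAT2, BCKDHA, BCKDHB, DBT, BCKDK, IVD, MCCC1, MCCC2 and AUH. Guides were assigned to them by the gene name that the count files give for each guide. The files list 9 of the 10, each with 10 guides, among 2978 targeted genes and 30197 guides, and BCKDK, the kinase that switches the pathway off, was not analysed here. MIA PaCa-2, an established human pancreatic ductal adenocarcinoma line, had been transduced with a pooled CRISPR knockout library against metabolic genes, in which each cell carries a guide RNA that directs Cas9 to cut a gene. After puromycin selection, untreated cells were taken at day 0 as the initial population, and others were cultured for 14 days in DMSO, the vehicle, or in apilimod, which inhibits PIKfyve, a kinase of phosphoinositide lipids. The label gives 200 nM apilimod, a concentration that differs from the one in the study's methods for a 14-day screen, so the dose behind these counts is uncertain. Each of these 3 conditions had 1 library, made from cells pooled within the condition, and all cells were of the same line and carried the same guide library. Guide counts hold no expression data, so the line could not be checked against markers.

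Leucine, isoleucine and valine are first transaminated by BCAT1 in the cytosol or BCAT2 in mitochondria, a reversible step that passes nitrogen to glutamate. The resulting keto acids are committed to breakdown by the branched-chain keto acid dehydrogenase complex (BCKDH), built from an E1 decarboxylase of BCKDHA and BCKDHB, the lipoyl-bearing E2 core DBT and the E3 subunit DLD, which BCKDH shares with the pyruvate and oxoglutarate dehydrogenases. The leucine branch then runs through isovaleryl-CoA dehydrogenase (IVD), methylcrotonyl-CoA carboxylase (MCCC1 and MCCC2) and the hydratase AUH to acetoacetate and acetyl-CoA. In pancreatic tumours the pathway is known as a possible source of carbon for lipid synthesis and of nitrogen.

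The libraries held 24695476 counts for the initial population, 26276517 for DMSO and 25599416 for apilimod. Median counts per guide ran from 651 to 663, and 72, 263 and 306 guides had no count. The guide score was the log2 change of a guide's share of its library, with 1 count added, and the gene score was the mean over guides that had at least 100 counts initially. Of the 90 guides of the listed genes 85 passed, and each of the 9 genes kept 9 or 10. Errors on gene scores are SDs over guides of the same gene, which share their target and their libraries. Each gene's guides were set against 487 guides that cut intergenic DNA by the exact rank-sum test (two-sided), adjusted after Benjamini and Hochberg over all 2969 genes tested and called at an adjusted p under 0.05. With 1 library a condition, these tests compare the libraries and not the conditions. Ratios of apilimod to DMSO are printed unscaled. The p-values printed with them are from the same test on guide scores scaled in each arm, as described below. A negative score is read against the control guides, whose median was 0.14 in DMSO and 0.22 in apilimod.

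In DMSO BCAT2 guides rose, and the other 8 genes did not pass the test in either direction. Of the 9 scores, 5 lay above the median of all genes and those of DBT, AUH, MCCC2 and IVD lay below it. None of the 9 genes was called lower than the control guides in DMSO, where 18.9% of all genes were. BCAT2 was called higher, as were 0.842% of all genes. The median score of the 9 genes was 0.11, against -0.03 over all genes. Of their guides, 34 of 85 lay below the control median (40%), where 61.1% of all gene-targeting guides did. In apilimod none of the 9 was called in either direction, with background shares of 29.0% lower and 0.236% higher, and 1 of them, BCAT1, had an unadjusted p under 0.05, as did 1192 of all 2969 genes. Their median score there was 0.19, against -0.04 over all genes, and 46 of 85 guides lay below the control median (54.1%), where 67.1% of all gene-targeting guides did.

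**Figure D1:**
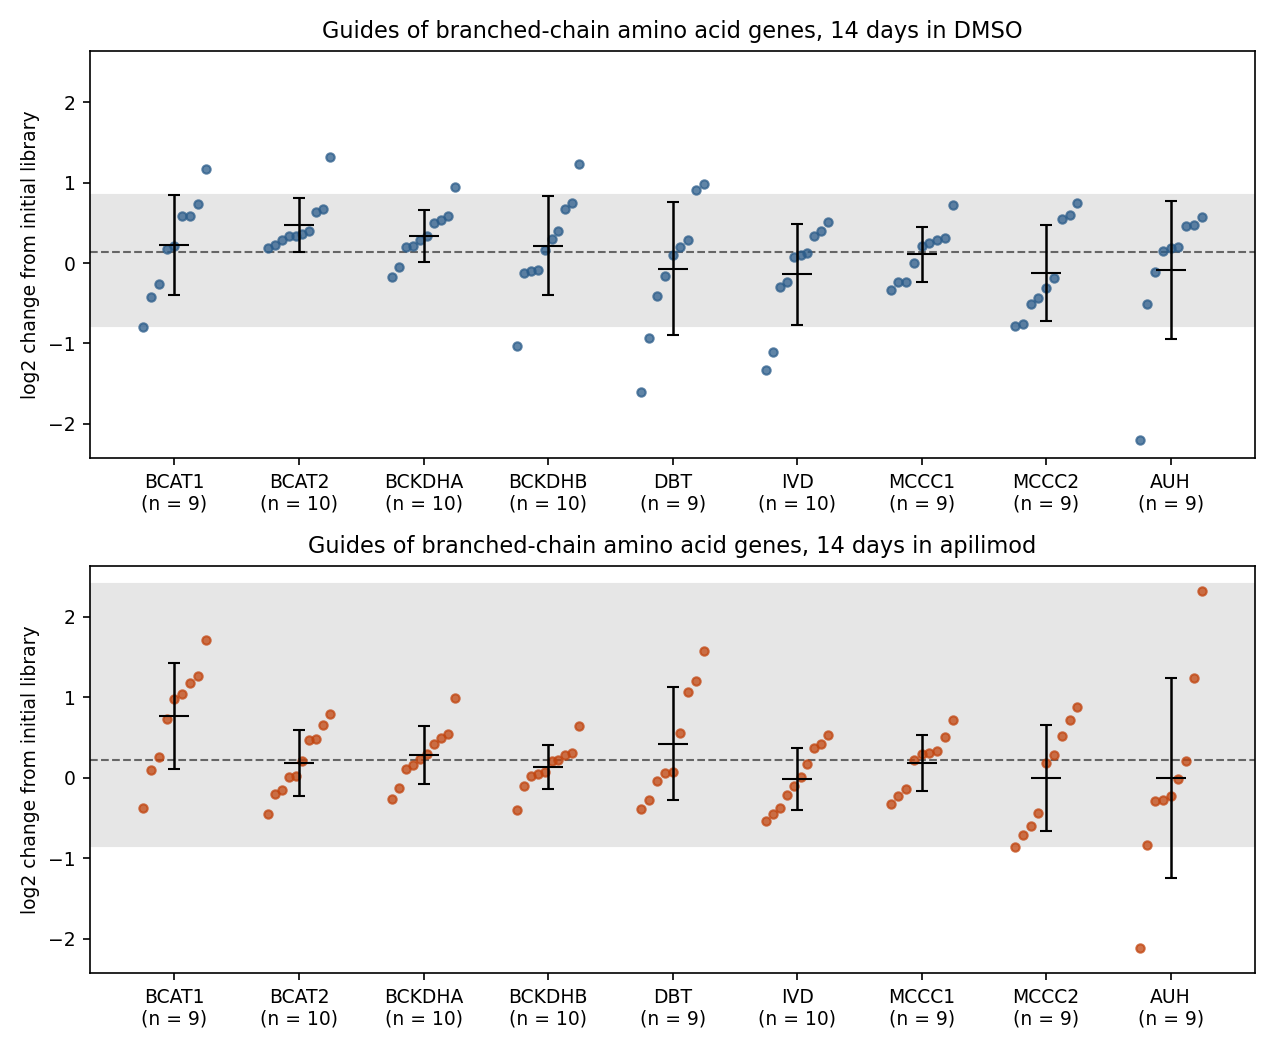
Log2 change of each guide from the initial library after 14 days in DMSO (upper panel) and in apilimod (lower panel), for the 9 listed genes. Each point is a guide, the bars give the mean ± SD over guides, the dashed line is the median of the 487 control guides and the grey band holds the central 95% of them. All 10 BCAT2 points lie above the line in DMSO, and in apilimod 7 of 9 BCAT1 points do.

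BCAT2, the mitochondrial transaminase, had the highest score of the 9 genes in DMSO. Its 10 guides summed to 8564 counts in the initial library, 11829 in DMSO and 8985 in apilimod, which is 347, 450 and 351 counts in each 1000000 of the library (CPM). Each of the 10 guides had a positive change in DMSO, from 0.19 to 1.32, and each lay above the control median. The mean was 0.48 ± 0.34 (SD over guides, n = 10; exact rank-sum test, adjusted p = 0.0314), the highest but 25 of all genes, with 99.1% of genes scoring lower. The largest change came from guide 6, with 251, 670 and 453 counts in the initial, DMSO and apilimod libraries. The call of the exact rank-sum test was lost when the farthest guide was left out of every gene (score 0.38, adjusted p = 0.0839) and when 300 initial counts were required (score 0.35, adjusted p = 0.165).

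In apilimod the BCAT2 guides fell on both sides of the control median, 4 above and 6 below, with a score of 0.19 ± 0.40 (n = 10; exact rank-sum test, adjusted p = 0.772). Guide by guide, 8 of 10 had a smaller share of the apilimod library than of the DMSO library. The most abundant guide, guide 10, had 1879 counts initially, 2524 in DMSO and 1432 in apilimod, and guides 2 and 7 showed the same order with 1681, 2298 and 1520, and 1822, 2357 and 1704 counts. Guides 8 and 9 went the other way, with 739 and 1370 counts in apilimod against 685 and 1046 in DMSO. The mean log2 ratio of apilimod to DMSO was -0.29 ± 0.36 (n = 10). The test on scaled guide scores gave p = 0.00504 before adjustment and 0.212 after it over all genes (exact rank-sum test). The difference between the arms thus did not pass.

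BCAT1, the cytosolic transaminase, had its highest share in the apilimod library. Its 10 guides summed to 6970, 8884 and 13264 counts in the initial, DMSO and apilimod libraries, or 282, 338 and 518 CPM, the last with an exact Poisson 95% interval of 509 to 527 that covers counting error only. In DMSO its score was 0.22 ± 0.62 (n = 9; exact rank-sum test, adjusted p = 0.753), with 6 guides above the control median and 3 below. In apilimod the score was 0.77 ± 0.66, the highest but 13 of all genes, with 7 of 9 guides above the control median. It did not pass after adjustment (exact rank-sum test, p = 0.0281, adjusted p = 0.0817). Leaving out the farthest guide of each gene brought it past the threshold (score 0.91, exact rank-sum test, adjusted p = 0.0165). For BCAT1 this removed guide 4, its lowest at -0.37 and the only kept guide with a negative change in apilimod. BCAT1 also passed with no count minimum (score 1.14, exact rank-sum test, adjusted p = 0.0424). That setting added guide 5, which had 9 initial counts and a change of 4.51. With all gene-targeting guides as the null it passed as well (exact rank-sum test, adjusted p = 0.0106). That null called 82 of all 2969 genes higher in apilimod, where the control guides called 7. BCAT1 passed in 3 of 8 alternatives, and its adjusted p reached 0.0988 in the others (exact rank-sum test). These settings reuse the same libraries and are not independent of each other.

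The guides of BCAT1 were spread unevenly behind that mean. Guide 1 had 1413 counts initially, 1117 in DMSO and 3511 in apilimod, so its apilimod to DMSO ratio was 1.69 (log2) with a 95% counting interval of 1.59 to 1.79. Guide 6 had 166, 205 and 569 counts, and guide 10 had 835, 513 and 1034. Guide 4 went the other way at 568, 685 and 455, and guides 7 and 9 were nearly even between the arms with 1293 and 1152, and 1444 and 1404 counts. The mean ratio was 0.54 ± 0.75 (n = 9; exact rank-sum test, adjusted p = 0.650), and its SD exceeded the mean. Guide 5, which failed the count minimum with 9 initial counts, had 5 in DMSO and 236 in apilimod. The difference between BCAT1 and BCAT2 in their ratios, 0.54 and -0.29, was not tested.

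The initial abundance of a guide moved with its apilimod value among the control guides, and this bears on the low-count guides above. The 20 control guides with 100 to under 200 initial counts had a median change of -0.06 in DMSO and 1.91 in apilimod, where the 282 with at least 1000 had 0.16 and 0.13. Among gene-targeting guides the matching medians in apilimod were 0.20 for 2209 guides and -0.07 for 8563. The 11 guides of the listed genes in the low class had a median of 0.64 in apilimod and the 20 in the high class 0.04. The part of initial abundance in any gene score was not tested directly. An alternative removed the median trend over abundance of all kept guides, 28042 of them gene-targeting and 487 control guides. It could not take out the larger shift of the low-count control guides. With that median trend removed BCAT2 was still called in DMSO and no listed gene was called in apilimod.

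The E1 and E2 subunits of BCKDH gave no call in any comparison. BCKDHA, the E1 alpha subunit that the kinase phosphorylates, summed to 7662, 10057 and 9518 counts in the initial, DMSO and apilimod libraries. In DMSO 8 of its 10 guides lay above the control median, with a score of 0.34 ± 0.32 (exact rank-sum test, adjusted p = 0.264), higher than 95.9% of genes. In apilimod it scored 0.29 ± 0.36 with 6 of 10 above. Its ratio of -0.05 ± 0.32 was the nearest to 0 of the 9 genes. Guide 7, at 716, 885 and 1477 counts, had a ratio of 0.78, and guide 1, at 494, 1014 and 721 counts, had -0.45. Against the control median of the ratio, 9 of the 10 guides lay below and 1 above.

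BCKDHB, the E1 beta subunit, summed to 8922, 10026 and 9819 counts. Its DMSO score of 0.22 ± 0.62 and its apilimod score of 0.13 ± 0.28 had 6 and 4 of 10 guides above that of the controls (exact rank-sum test, adjusted p = 0.740 and 0.582). The wider spread in DMSO came from guide 9, with 922, 480 and 894 counts, and guide 4, with 112, 281 and 182. The most abundant guide, guide 7, stayed level at 2733, 2673 and 2878 counts.

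DBT, the E2 core, had a wide spread over guides in both arms. It summed to 6221, 7470 and 7937 counts, and its scores were -0.07 ± 0.83 in DMSO and 0.43 ± 0.71 in apilimod (n = 9; exact rank-sum test, adjusted p = 0.737 and 0.882). Guide 4 had 657 counts initially, 230 in DMSO and 662 in apilimod, and guide 2 had 130, 72 and 311. The abundant guides 1, 7 and 10 showed no such pattern, with 1146, 1493 and 1241, then 1469, 1790 and 1600, and then 1523, 1445 and 1203 counts. The mean ratio was 0.50 ± 0.89 (exact rank-sum test, adjusted p = 0.814), and 4 of the 9 guides had under 200 initial counts. Guide 5, with 5 initial counts, failed the minimum and had 106 and 202 counts in the DMSO and apilimod libraries.

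**Figure D2:**
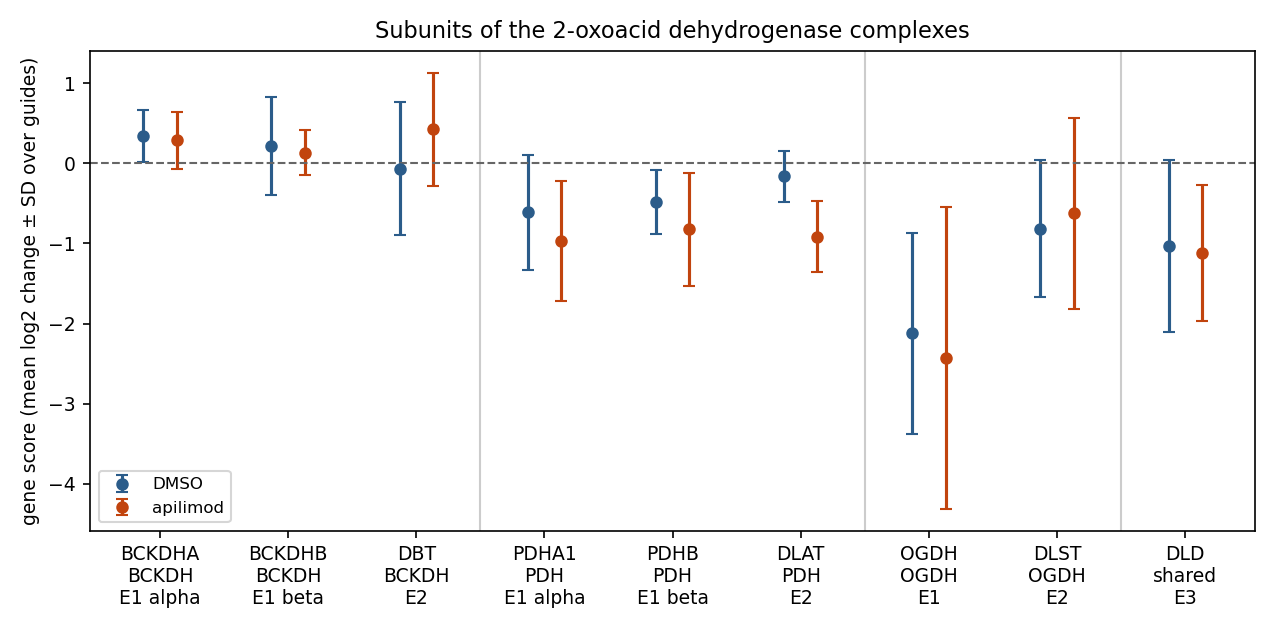
Gene score (mean log2 change from the initial library ± SD over guides) in DMSO and apilimod for the E1 and E2 subunits of BCKDH, pyruvate dehydrogenase (PDH) and oxoglutarate dehydrogenase (OGDH), and for DLD, the E3 subunit they share. The BCKDH subunits lie between -0.07 and 0.43, and the lowest value belongs to OGDH, at -2.43 in apilimod.

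The E1 and E2 subunits named here for the sister complexes scored lower than those of BCKDH over the same libraries. So did DLD, the E3 subunit that BCKDH shares with them. DLD fell in DMSO, at -1.04 ± 1.07 where 9 of 10 guides were under the controls' median (exact rank-sum test, adjusted p = 0.000127), and in apilimod, at -1.12 ± 0.85 with 10 of 10 below (adjusted p = 7.63e-07). Of 10 listed genes of the pyruvate and oxoglutarate dehydrogenase complexes and their regulators, 6 were called lower in DMSO and 6 in apilimod. These were PDHA1, PDHB, DLAT, OGDH, DLST and the pyruvate dehydrogenase kinase PDK2 in each. Over all genes 18.9% and 29.0% were called lower. OGDH, the E1 of the oxoglutarate complex, scored -2.12 ± 1.25 and -2.43 ± 1.88. DLST, its E2, scored -0.82 ± 0.86 and -0.62 ± 1.19. The E1 alpha PDHA1 scored -0.61 ± 0.72 and -0.97 ± 0.75, and the E1 beta PDHB -0.48 ± 0.40 and -0.83 ± 0.70. DLAT, the pyruvate dehydrogenase E2, was lower in apilimod than in DMSO, with a log2 ratio of -0.75 ± 0.50 (n = 10; exact rank-sum test, adjusted p = 0.0158), while the E2 DBT had 0.50 ± 0.89. The median score over the 10 was -0.28 in DMSO and -0.46 in apilimod. Their scores ran from -2.12 to 0.44 in DMSO and from -2.43 to 0.48 in apilimod. The difference between the complexes was not itself tested.

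The enzymes of the leucine branch gave no call in any comparison. Measured from the control median, IVD, MCCC2 and AUH scored -0.28, -0.26 and -0.23 in DMSO, and MCCC1 scored -0.03. In apilimod the same distances were -0.24, -0.22 and -0.22, and -0.03 for MCCC1. IVD, which hands electrons from isovaleryl-CoA to the electron transfer flavoprotein, summed to 6385, 7067 and 6596 counts. In each arm 7 of its 10 guides lay below the control median, with scores of -0.14 ± 0.62 in DMSO and -0.01 ± 0.38 in apilimod (exact rank-sum test, adjusted p = 0.463 and 0.188). Its DMSO score was the lowest of the 9 genes, and 35.4% of all genes scored lower still. The lowest guides in DMSO were 10 and 4, with 278, 117 and 211 counts and 572, 282 and 600 counts. In apilimod guide 10 remained low at -0.45, and guide 4 was at 0.02.

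MCCC1, the biotin-carrying subunit of methylcrotonyl-CoA carboxylase, summed to 8611, 10359 and 10008 counts and had a narrow spread in both arms. Its scores were 0.11 ± 0.34 and 0.19 ± 0.35 (n = 9; exact rank-sum test, adjusted p = 0.861 and 0.841). The abundant guides 4 and 7 had 1983, 2625 and 2394 counts and 2053, 2188 and 1933 counts. Guide 1 was at 31 counts initially and at 0 in both later libraries, where no count allows up to 0.114 and 0.117 CPM, and it failed the minimum.

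MCCC2, the partner subunit, summed to 4899, 5682 and 5568 counts and scored -0.12 ± 0.60 in DMSO and 0.00 ± 0.66 in apilimod (n = 9; exact rank-sum test, adjusted p = 0.304 and 0.481). Against the control medians, 6 of its 9 guides lay on the same side in both arms, which share the initial library. Guides 1, 2, 6 and 8 were below in both, such as guide 2 with 401, 253 and 229 counts and guide 8 with 609, 377 and 384. Guides 4 and 5 were above in both, such as guide 4 with 1059, 1894 and 1803 counts. Guides 7 and 9 were below in DMSO and above in apilimod, with 188, 161 and 361 counts and 502, 470 and 747 counts, and guide 10 the reverse, with changes of 0.54 and 0.19. Guide 3 had 96, 393 and 227 counts and fell just short of the minimum.

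AUH, which hydrates methylglutaconyl-CoA, had the widest spread in apilimod of the 9 genes. It summed to 7177, 7621 and 8119 counts, and scored -0.09 ± 0.86 in DMSO and 0.00 ± 1.24 in apilimod (n = 9; exact rank-sum test, adjusted p = 0.964 and 0.228). Guide 6 had 460 counts initially, 106 in DMSO and 109 in apilimod, changes of -2.20 and -2.12, the lowest of any kept guide of the 9 genes in either arm. Guide 2 had 284, 417 and 1477 counts, and guide 10 had 259, 256 and 637. The mean of 0.00 in apilimod thus hid 7 of 9 guides below the control median. With a minimum of 300 initial counts, which removes guides 2 and 10, AUH was called lower in apilimod at -0.51 (exact rank-sum test, adjusted p = 0.0112). At that minimum 763 of all 2778 genes tested were called lower in apilimod. Guide 9 failed the minimum with 99 counts and had 44 in DMSO and 542 in apilimod.

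For the direct comparison of the arms, guide scores were scaled in each arm so that the control median was 0 and the median score of 30 nucleotide synthesis genes, -1.32 in DMSO and -1.50 in apilimod, was -1. None of the 9 genes was called, where 0.573% of all genes were called lower in apilimod and 0.202% higher, and 1 of the 9, BCAT2, had an unadjusted p under 0.05, as did 313 of all 2969 genes. The median unscaled log2 ratio was 0.09, against -0.01 over all genes. The z score, the centred scaled difference in SDs over genes, had a median of 0.30 for the 9 and -0.02 for all. It was highest for DBT (1.67) and BCAT1 (1.66) and lowest for BCAT2 (-1.32). IVD, MCCC1, MCCC2 and AUH had ratios of 0.13 ± 0.62, 0.08 ± 0.57, 0.12 ± 0.51 and 0.09 ± 0.91, and BCKDHB had -0.08 ± 0.47. When the 9 genes were sorted by score or ratio within each comparison, neighbours lay closer together than the SD over guides of either.

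**Figure D3:**
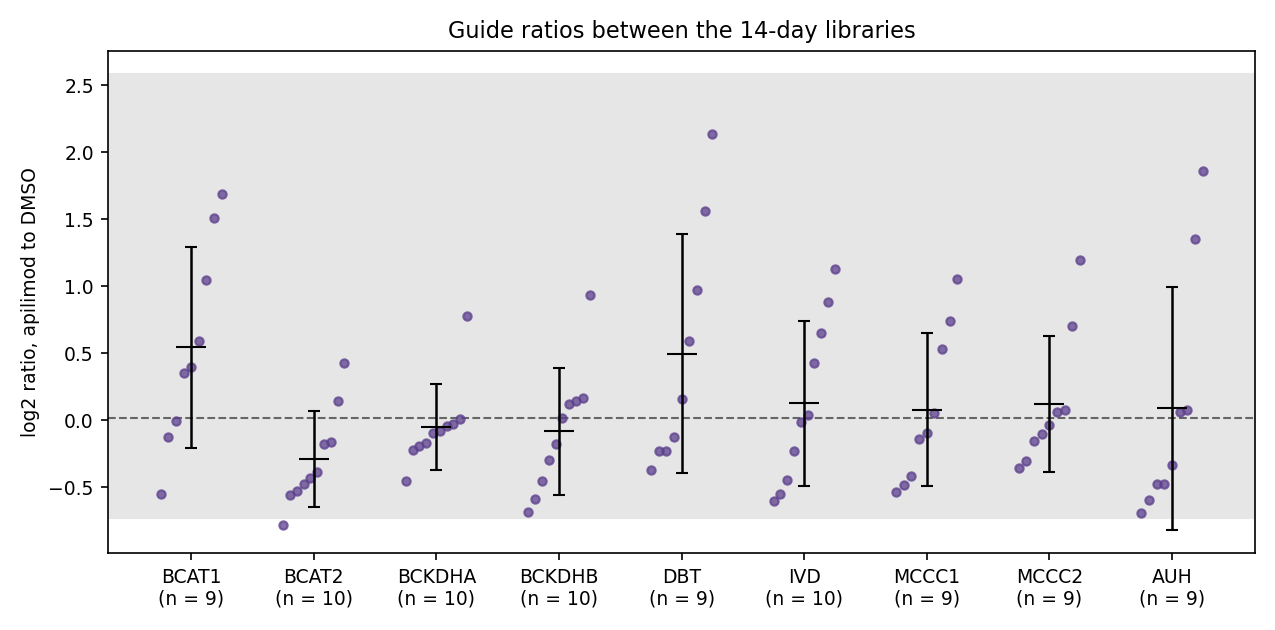
Log2 ratio of apilimod to DMSO for each guide of the 9 genes, unscaled. Points are guides, bars are the mean ± SD over guides, the dashed line is the median of the 487 control guides (0.01) and the grey band their central 95%, from -0.73 to 2.59. For BCAT2, 8 of 10 points lie below the line, and for BCAT1, 6 of 9 lie above it.

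Single guides were also set against the range of the controls. In DMSO 7 of 85 lay under the central 95% of control guides, which ran from -0.78 to 0.85, and 6 lay over it. In apilimod the range was -0.85 to 2.41, and 2 guides lay under it and 0 over it. In the ratio 1 guide, the BCAT2 guide 10, lay under and 0 over. Over all gene-targeting guides 13.5%, 14.5% and 10.6% lay under the range in the same 3 comparisons, and 3.62%, 0.282% and 0.670% lay over it. For the 85 guides in DMSO the shares were 8.24% under and 7.06% over. The control guides themselves spread more in apilimod, with an SD of 0.73 against 0.40 in DMSO.

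**Figure D4:**
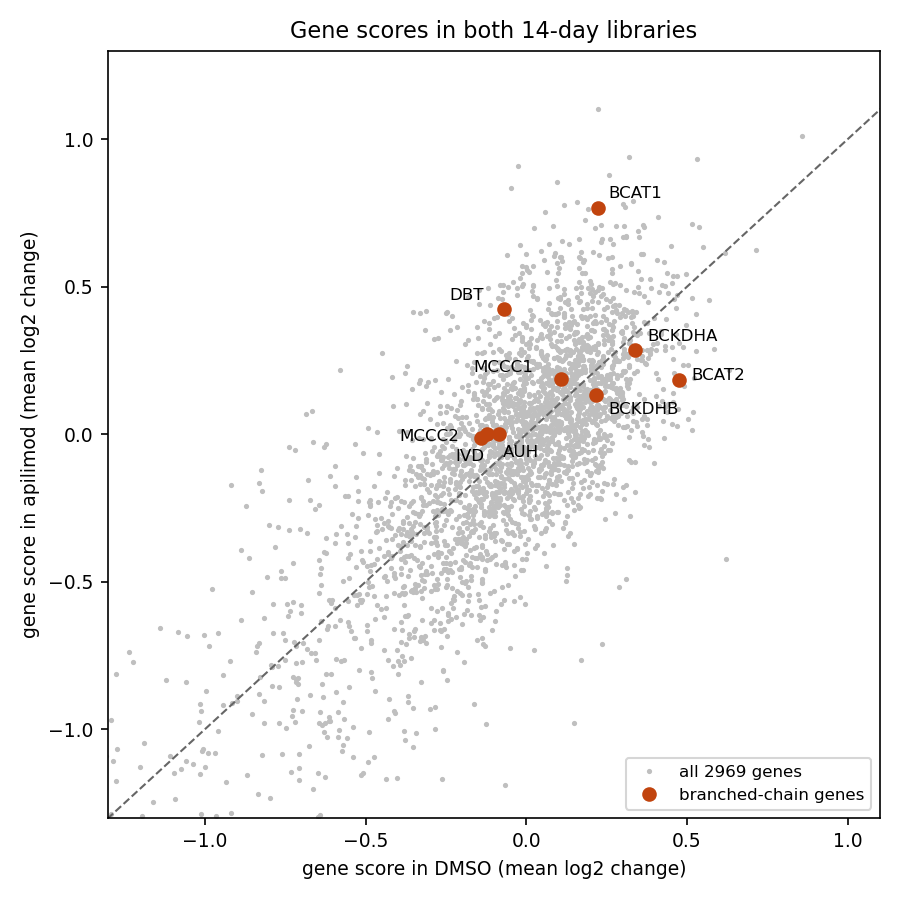
Gene score in apilimod against gene score in DMSO for all 2969 genes (grey) and the 9 branched-chain genes (orange), each a mean log2 change from the same initial library, with the line of equal scores dashed. The axes leave out 154 genes with scores beyond them. BCAT1 and DBT lie above the line and BCAT2 below it, at 0.48 in DMSO and 0.19 in apilimod.

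The wider pathway had lower calls at counts near the background, and its difference from the 9 genes was not tested. Of 32 listed genes around the core steps, 5 were called lower in DMSO and 10 in apilimod, where 18.9% and 29.0% of all genes were, with 0 higher in each and 0 between the arms. Their median scores were 0.02 and -0.12. These lists were made up of partners of BCKDH, the valine and isoleucine branches, ketone body use, propionate use, biotin supply, electron transfer flavoprotein and transport.

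Transport, the longest of these lists, held the most lower calls among them, 2 of 8 in DMSO and 5 of 8 in apilimod. Over all genes 18.9% and 29.0% were called lower. SLC25A44, the mitochondrial carrier that brings branched-chain amino acids to BCAT2, fell to -0.35 ± 0.30 in DMSO all 10 guides being under the controls' median (exact rank-sum test, adjusted p = 0.000327) and to -0.27 ± 0.59 in apilimod (adjusted p = 0.0276). SLC7A5, the light chain of the plasma membrane exchanger LAT1, scored -0.01 ± 0.34 in DMSO and fell to -0.42 ± 0.45 in apilimod (exact rank-sum test, adjusted p = 0.000327). Its heavy chain SLC3A2 fell in apilimod, at -0.22 ± 0.57 (exact rank-sum test, adjusted p = 0.0382), as did the facilitative carrier SLC43A2, at -0.21 ± 0.59 (adjusted p = 0.0382). In DMSO SLC3A2 and SLC43A2 scored -0.13 ± 0.44 and -0.33 ± 0.65 and were not called (exact rank-sum test, adjusted p = 0.173 and 0.0642). Their ratios of the arms, -0.09 ± 0.57 and 0.12 ± 0.37, did not pass (exact rank-sum test, adjusted p = 0.985 and 0.816). SLC7A6, another exchanger light chain, fell in both arms, at -0.25 ± 0.42 and -0.51 ± 0.88. For SLC7A5 the ratio of the arms was -0.41 ± 0.40 and did not pass (exact rank-sum test, adjusted p = 0.234).

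In the valine and isoleucine branches, 1 of 7 genes fell in DMSO and 3 of 7 in apilimod, where 18.9% and 29.0% of all genes did. HSD17B10, which acts in isoleucine breakdown and is also a subunit of mitochondrial RNase P, fell to -2.49 ± 1.82 and -2.85 ± 3.08. ECHS1, the enoyl-CoA hydratase of valine and fatty acid breakdown, scored -0.97 ± 2.56 in DMSO and was not called there (exact rank-sum test, adjusted p = 0.245). Against the initial library its apilimod score was -1.29 ± 2.53, called lower (n = 9, exact rank-sum test, adjusted p = 0.00516). The ECHS1 ratio of the arms was -0.33 ± 0.69 and did not pass (exact rank-sum test, adjusted p = 0.600). HIBCH, the hydrolase of the valine branch, scored 0.12 ± 0.39 in DMSO and fell to -0.30 ± 0.28 in apilimod all 10 guides being under the controls' median (exact rank-sum test, adjusted p = 0.00081), and its ratio of -0.42 ± 0.35 did not pass (adjusted p = 0.155).

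Of 6 genes that carry propionate to succinyl-CoA, methylmalonyl-CoA mutase (listed as MUT) fell in DMSO, at -0.35 ± 0.57 (n = 8, exact rank-sum test, adjusted p = 0.0239), and scored -0.12 ± 0.47 in apilimod. The MUT ratio of the arms was 0.23 ± 0.37 and did not pass (exact rank-sum test, adjusted p = 0.671). HLCS, the ligase that attaches biotin to MCCC1 and other carboxylases, scored -0.13 ± 1.00 in DMSO and was not called there. Against the initial library its apilimod score was -0.46 ± 0.92, called lower (n = 9, exact rank-sum test, adjusted p = 0.0144), while MCCC1 itself scored 0.19 ± 0.35. The HLCS ratio of the arms was -0.33 ± 0.33 and did not pass (exact rank-sum test, adjusted p = 0.441). None of the 3 genes of electron transfer flavoprotein was called in any comparison. PPM1K, the phosphatase that opposes BCKDK, was not analysed here.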

How the data were processed

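Guides had been amplified from genomic DNA of 3 libraries (initial, DMSO, apilimod) and sequenced. The deposited values are raw guide counts, made by the authors with cutadapt 4.1, Bowtie2 2.4.5 and MAGeCK 0.5.9.5. The files of the libraries and the table of the series held the same counts (0 differing values). Here, in Python 3.11.15 with numpy 2.4.6, pandas 2.3.3 and scipy 1.17.1, log2((count + 1)/total) of the initial library was subtracted from that of each 14-day library, after the study's methods. Guides with under 100 initial counts (1630) and genes with under 6 guides were left out. The exact rank-sum test was tested on simulated counts without arm scaling. Unchanged guides there drifted as the control guides did, whatever their initial abundance. The scaled test and the part of initial abundance were thus not checked. Alternatives changed the count minimum, pseudocount, gene summary, null guides, farthest guide and arm scaling. Counting intervals cover counting error only, since reads had no molecular identifiers. Every listed gene of the 10 was named in each comparison. Of the pathway lists, genes called in any comparison were named, plus DLD, PPM1K, HLCS and SLC25A44, and 1 further gene of that rule is not reported here. Members and lists were chosen with earlier results of these data known. Guide sequences and BCKDK were not analysed here. The listed genes lie, in GENCODE on hg38, on chromosomes 12 (BCAT1, 24810024 to 24949101), 19 (BCAT2, 48795062 to 48811029, and BCKDHA, 41397808 to 41425002), 6 (BCKDHB, 80106647 to 80346270), 1 (DBT, 100186919 to 100249834), 15 (IVD, 40405485 to 40435947), 3 (MCCC1, 183015218 to 183116075), 5 (MCCC2, 71579531 to 71658706) and 9 (AUH, 91213815 to 91361918). The place of each guide within its gene was not given in the sources used here.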

Additional observations from a re-analysis of the deposited data

How the results depend on the processing

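Of 240 recomputed values of the 9 genes, 233 kept their call, 2 lost it, 5 gained it and 0 reversed. In DMSO the count of called genes, 1 as reported, was 0 with a minimum of 300 initial counts and 0 without the farthest guide of each gene, and BCAT2 was called in 6 of 8 alternatives (score 0.35 to 0.48, adjusted p from 0.00936 to 0.165). In apilimod the count, 0 as reported, was 1 with a minimum of 300 (AUH, lower), and 1 (BCAT1, higher) with no minimum, with all gene-targeting guides as the null and without the farthest guide, and BCAT1 scored 0.65 to 1.14 over 8 alternatives (adjusted p from 0.0106 to 0.0988). Between the arms it was 1 without the farthest guide (BCAT2, -0.37, exact rank-sum test, adjusted p = 0.0477, in a range of 0.0477 to 0.537 over 11 alternatives). DBT had too few guides to score at 300 counts. The cause of each change was not tested.

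Over all genes, 560 lower and 25 higher in DMSO became 222 and 50 with all gene-targeting guides as the null, and the higher calls 54 without the farthest guide. In apilimod 862 and 7 became 225 and 82 with that null and 880 and 14 without the farthest guide. They became 763 and 13 at a minimum of 300 (2778 genes tested) and 823 and 12 with no minimum. Between the arms 17 lower and 6 higher became 36 and 1 with no scaling, 9 and 17 with complex I genes as the reference, 30 and 1 at a minimum of 300, 41 and 9 without the farthest guide, 7 and 6 with all gene-targeting guides as the null, 15 and 1 with guides kept on the mean of 3 libraries, 19 and 2 with a pseudocount of 10, 19 and 4 at a minimum of 30, and 21 and 4 with no minimum. Removal of the abundance trend was chosen after seeing the data, and changed no call of the 9 genes. It took out the median over all kept guides, and not the larger shift of the low-count control guides. No paired analysis was possible because each condition had 1 library. Guides with under 100 initial counts were not scored, so 5 guides of the 9 genes give counts only.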
